A study of Mus musculus with 8 samples.

Results

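The nuclear genes that encode subunits of the mitochondrial respiratory chain and of ATP synthase were examined in mouse retinal organoids after acute loss of METTL3, the catalytic subunit of the complex that places N6-methyladenosine (m6A) on messenger RNA. Genes were taken by name alone (Ndufa, Ndufb, Ndufc, Ndufs, Ndufv, Sdh, Uqcr, Cox5 to Cox8 and Atp5 symbols), and the rule does not use how they responded. The set itself was chosen with earlier results of these data known. Cox4i1 and Cox4i2 did not match the rule. The rule found 77 genes, of which 73 reached at least 1 FPKM (a fragment count normalised for transcript length and library size) in 1 of the conditions compared. They are 73 of 13825 tested loci in the table that compares 8 h with 0 h. Among them, Atp5s, Cox7a2l and Ndufa4l2 encode associated proteins rather than subunits, and they are counted in the set. In the table for 1 h, 72 of 13690 loci were tested, because the name Cox7a1 stood at more than 1 locus there. In the table for 24 h, 73 of 13910 were tested.

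The organoids were grown to day 6 from an Rx:GFP cell line, in which GFP reports the retinal gene Rx (Rax). Both endogenous Mettl3 alleles carry FKBP12F36V-HA at the C terminus, a degron through which the small molecule dTAG-13 sends the protein for degradation. All 4 groups share this genotype and line, including the controls, so no cells without the tag were compared. The groups, with 2 samples each, received 125 nM dTAG-13 for 1, 8 or 24 h or none (0 h), and the labels do not say whether the 0 h group received solvent. A 2 h treatment that the protocol also names is not analysed here.

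Messenger RNA was selected by its poly(A) tail and sequenced, and the authors deposited 3 comparisons of a treated time with 0 h. For every gene and condition they hold a single FPKM, pooled from both samples, and its bounds. Spread between samples therefore cannot be seen, no test over samples was possible, and the deposited interval is the error given with each value. All 3 comparisons use the same 0 h samples. A gene was called when its FPKM, with 0.1 added in each condition, differed at least 1.5-fold and the deposited intervals lay apart. Mettl3 messenger RNA, which does not report the loss of the protein, stood at 19.4 FPKM at 0 h, 19.4 at 8 h and 17.0 at 24 h. It was not called. Of the retinal progenitor markers, 11 of 12 had a unique locus that was tested at 8 h, with Lhx2 at 142 FPKM, Pax6 at 126 and Rax at 49.7 at 0 h. Markers of pluripotent cells were also present, with Dppa5a at 200 FPKM. Neuronal markers were low: 2 of the 5 with a unique locus passed 1 FPKM, and Pou4f2 was at 0 at 0 h.

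The respiratory chain carries electrons from NADH and succinate to oxygen. Complex I oxidises NADH, complex II (succinate dehydrogenase) oxidises succinate, complex III passes the electrons to cytochrome c, and complex IV (cytochrome c oxidase) reduces oxygen. Complexes I, III and IV pump protons, and ATP synthase uses the proton gradient to make ATP. Complexes I, III, IV and ATP synthase combine subunits from the mitochondrial genome with many more from the nucleus, while complex II is wholly nuclear encoded. Most of the nuclear genes are short, highly expressed and active in nearly every cell type.

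In untreated organoids these genes stood among the most abundant messages. Their median at 0 h was 105 FPKM, against 12.6 FPKM over all tested loci, and 53 of the 73 lay in the top 10% of tested loci. By complex, the median level was 175 FPKM for ATP synthase, 155 for complex IV, 146 for complex III, 84.6 for complex I and 82.8 for complex II. Atp5b, the catalytic beta subunit of ATP synthase, had the highest level at 612 FPKM (deposited interval 493 to 730). It was followed by Atp5j2 at 505 FPKM, Atp5g3 at 414, Atp5a1 at 371 and Cox6c at 291. Going down the order of levels, each gene's interval overlapped that of the next, except between Ndufa13 (31.9 FPKM) and Ndufb4 (10.4 FPKM). Atp5j2, which encodes a small membrane subunit, is less certain in its place, because its 0 h level was 234 FPKM in the table for 1 h and 505 in the table for 8 h. Ndufv2 (240 against 138 FPKM), Ndufa11 (13.8 against 9.29) and Ndufs5 (4.15 against 2.21) also differed over 1.1-fold between those tables, and all other tested genes of the set agree within that factor.

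**Figure D1:**
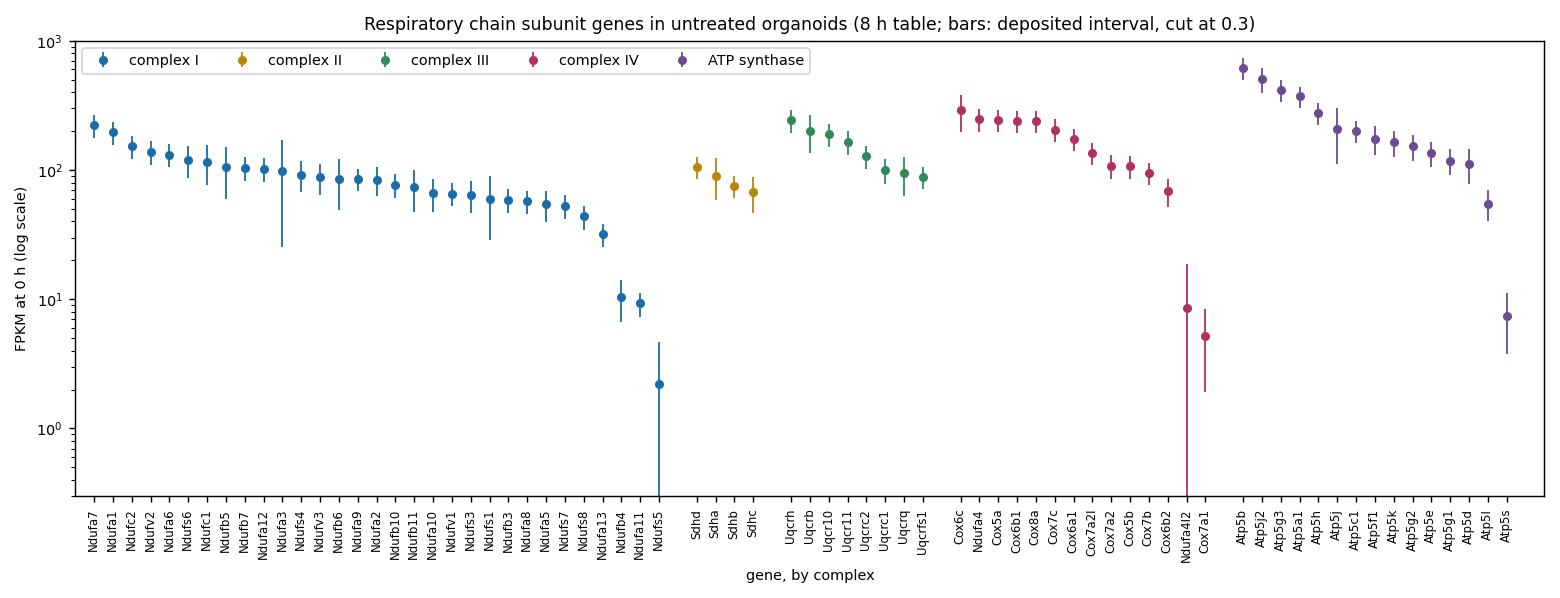
FPKM of 72 of the 73 genes at 0 h on a log axis, taken from the table that compares 8 h with 0 h and ordered by level within each complex; points are the deposited values and bars the deposited intervals. ATP synthase genes reach 612 FPKM at Atp5b, while Ndufs5, Cox7a1, Atp5s, Ndufa4l2, Ndufa11 and Ndufb4 lie far below the other genes.

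The isoforms of complex IV that are known from heart and skeletal muscle were low or undetected. Cox6a2 stood at 0.35 FPKM at 0 h, against 173 FPKM for its ubiquitous counterpart Cox6a1. Cox7a1 stood at 5.20 FPKM, against 107 FPKM for Cox7a2 (both from the table for 8 h), and Cox8b was listed at 0 in every condition, against 239 FPKM for Cox8a. Striated muscle markers were at trace level, with a summed 3.11 FPKM at 0 h over the 2 that were tested at 8 h, of 5 with a unique locus. The testis isoforms differed from each other: Cox6b2 reached 68.5 FPKM, beside 240 FPKM for Cox6b1, while Cox7b2 and Cox8c stayed below 1 FPKM throughout. Cox8c reached 0.37 FPKM at 24 h and Cox6a2 0.35 at 0 h, both well below the threshold of 1 FPKM. The lowest genes above it were Ndufs5 at 2.21 and Cox7a1 at 5.20 FPKM.

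The c ring of ATP synthase, the rotor in the membrane, is built from 1 mature protein that Atp5g1, Atp5g2 and Atp5g3 all encode. Atp5g3 gave 60.5% of the summed FPKM of the 3 genes at 0 h, Atp5g2 22.3% and Atp5g1 17.2%. The last 75 codons of the 3 coding sequences were 78.7% to 84.9% identical in their bases, so reads over that stretch can be hard to assign. At 24 h the shares were 58.4%, 26.1% and 15.5%.

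At 1 h of dTAG-13 no gene of the set was called, of 72 tested, where 0.402% of all tested loci were called. Their log2 ratios nevertheless lay mostly on 1 side: 67 of 72 were above 0, with a median of 0.14, where the median over all tested loci was 0.01 and 51.6% were above 0. With FPKM rescaled to a common total over named loci, the set's median was 0.08 and 59 of 72 were above 0. Highly expressed genes as a whole stood on the same side. Over the 2124 loci of at least 50 FPKM at 0 h the median was 0.07, and over the 65 genes of the set at that level it was 0.14. The single ratios ran from -0.14 (Cox6b2) to 0.46 (Atp5k, a small membrane subunit of ATP synthase, at 161 FPKM at 0 h and 222 FPKM at 1 h). In bulk organoids, a change in the share of cells of a type and a change in RNA per cell cannot be told apart.

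At 8 h none of 73 was called either, where 4.43% of all tested loci were called, 3.49% higher and 0.94% lower. The median log2 ratio of the set was -0.18 and 10 of 73 were above 0, while the median over all loci was 0.01. The loci of at least 50 FPKM again stood on the same side, with a median of -0.12 over 2150 loci, against -0.18 for the 65 genes of the set at that level. As a share of all estimated counts, the set held 0.656% at 0 h and 0.562% at 8 h, and as a share of summed FPKM 1.22% and 1.06%.

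At 24 h 2 of 73 genes were called, Uqcrfs1 higher and Sdhb lower, where 5.48% of all tested loci were called, 3.83% higher and 1.65% lower. The share called in the set was thus no greater than in the tables as a whole. With a 2-fold criterion neither was called, where 2.14% of all loci were. With 1.5-fold and no demand on the intervals, 2 genes passed at 8 h and 4 at 24 h, where 13.7% and 17% of all loci did. The median log2 ratio was -0.21 with 20 of 73 above 0, against a median of 0.02 over all loci and -0.13 over those of at least 50 FPKM. The set held 0.664% of the estimated counts at 0 h and 0.571% at 24 h, and 1.23% and 1.21% of the summed FPKM.

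The size of these shifts has to be read against the error of a single gene. The standard error of a gene's log2 ratio, taken from the deposited count variances, had a median of 0.22 at 1 h and 0.21 at 8 and 24 h. It is an error of the count ratio, and it can understate that of the FPKM ratio where the FPKM interval is wide. Sdha at 8 h had a standard error of 0.19, with 90.6 FPKM (58.4 to 123) at 0 h and 68.6 (38.5 to 98.6) at 8 h. With intervals of the deposited width, values had to differ by a median of 1.59-fold at 1 h, 1.53-fold at 8 h and 1.55-fold at 24 h before the intervals separated. A shift of the size of the set's median was therefore not detectable for a single gene. The median rests on genes measured in the same pooled libraries, and it carries no test over samples.

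**Figure D2:**
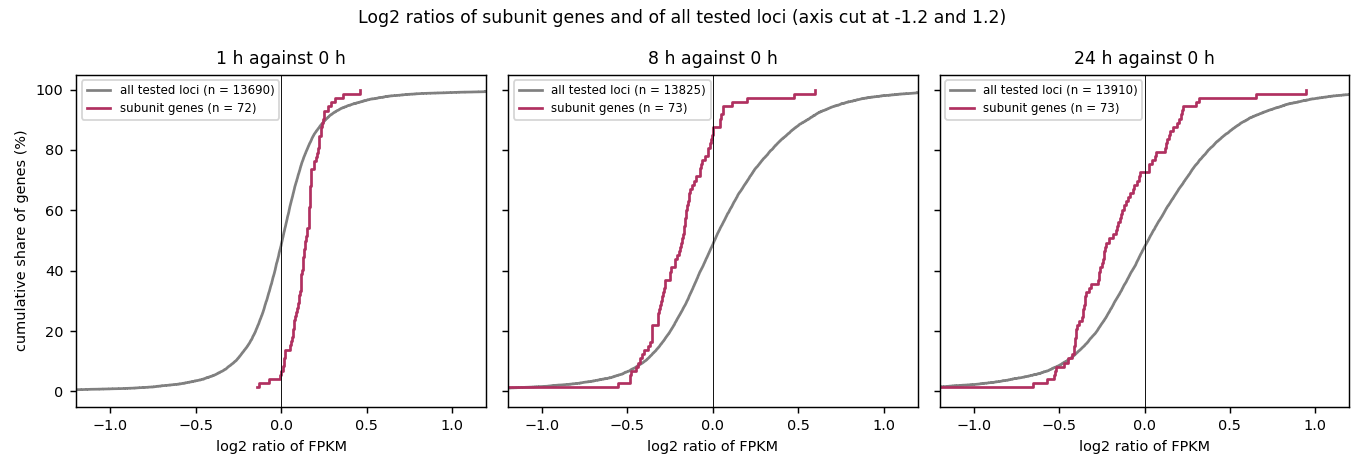
Cumulative share of genes (vertical axis, %) by log2 ratio of FPKM to 0 h (horizontal axis, with the tails not drawn) at 1, 8 and 24 h, for the subunit genes (red) and all tested loci (grey). The red curve crosses its midpoint at 0.14 at 1 h, -0.18 at 8 h and -0.21 at 24 h, while the grey curve crosses near 0 each time.

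Marker genes of cell types had different sums at these times as well. The retinal progenitor markers summed to 654 FPKM at 0 h and 814 at 8 h over 11 genes, and 656 at 0 h and 868 at 24 h. By 24 h Rax (0.66 in log2 ratio), Lhx2 (0.69) and Mab21l1 (1.00) had risen and Zic1 (-1.31) had fallen. The pluripotent markers had sums of 316 (0 h) and 284 FPKM (8 h) in the one table, and 317 (0 h) and 213 FPKM (24 h) in the other. Dppa5a gave the largest part of these sums, at 200 FPKM at 0 h and 109 at 24 h. Of the 8 pluripotent markers, 3 were above 0 at 8 h and 3 at 24 h. Among these 8, Dppa5a (-0.88) and Tdgf1 (-1.05) fell and Tbx3 (0.96) rose at 24 h. At 1 h the progenitor and the pluripotent sums were both within 10% of their 0 h level. The 3 tested markers of retinal pigment epithelium, of 6, summed to 59.5 FPKM (0 h) and 76.3 FPKM (8 h), and to 59.7 FPKM (0 h) and 96.4 FPKM (24 h). All 3 were above 0 at both times and none was called, with Pmel at 1.06 at 24 h, while Tyr and Rpe65 were at 0 at 0 h. The part of cell composition in the respiratory chain ratios was not tested.

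Complex I gave a similar picture in both of its parts. Of its core subunits, which form the path from NADH to the quinone site, 6 are described: Ndufv1, Ndufv2, Ndufs1, Ndufs3, Ndufs7 and Ndufs8. None of these was above 0 at 8 h or at 24 h, with medians of -0.31 and -0.36, and 5 of 6 were above 0 at 1 h, with a median of 0.11. Ndufv1, which binds NADH, stood at 65.7 FPKM at 0 h against 51.2 at 8 h, and its values for 24 h were 65.9 against 49.6 FPKM. The log2 ratios of the 6 at 8 h were within a narrow range, from -0.25 for Ndufs8 to -0.36 for Ndufv1. The loci of Ndufs1 and Ndufs3 overlap other expressed loci, and the interval of Ndufs1 is wide, 28.5 to 90.5 FPKM at 0 h.

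The 25 accessory subunits of complex I had medians of 0.16, -0.21 and -0.21 at 1, 8 and 24 h, with 3 above 0 at 24 h. The lowest ratio of a well covered gene at 8 h was that of Ndufa9, an accessory subunit close to the quinone site, at 84.8 FPKM at 0 h (68.5 to 101) and 60.5 FPKM at 8 h (48.8 to 72.3). These intervals overlap, as did those at 24 h, when its log2 ratio was -0.53. Ndufa8 stood at -0.48 and -0.47 at 8 and 24 h and Ndufa11 at -0.44 and -0.57. On the other side, Ndufa3 stood at 0.11 at 8 h, with a wide interval, and Ndufa2 at 0.04 and 0.13. Ndufs5 had a log2 ratio of -1.55 at 8 h and -2.04 at 24 h, but on 8.10 estimated counts at 0 h and 6.59 at 8 h, and nothing is read from it.

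Complex II, which also works in the tricarboxylic acid cycle, included 1 of the called genes. Sdhb encodes its iron-sulfur subunit and lies at chr4:140961203-140979193 on the plus strand (GRCm38). At 0 h it stood at 75.2 FPKM (60.6 to 89.9) and at 24 h at 47.9 FPKM (38.1 to 57.6), a log2 ratio of -0.65 with a standard error of 0.20. At 8 h it stood at 51.0 FPKM (40.8 to 61.2) against 74.97 (60.3 to 89.7), so the intervals still touched, and at 1 h at 75.8 against 72.1 FPKM. Sdha, the flavoprotein that oxidises succinate, had log2 ratios of -0.40 at both 8 and 24 h, and Sdhc, a membrane anchor, -0.32 and -0.42, all with overlapping intervals. The other anchor gene, Sdhd, stood apart at -0.04 and 0.07, at 105 FPKM at 0 h, 102 at 8 h and 110 at 24 h.

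Complex III held the other called gene and had the widest spread among well covered members of any complex at 8 and 24 h. Uqcrfs1 encodes the Rieske iron-sulfur protein, which passes electrons on to cytochrome c1, and lies at chr13:30540308-30545362 on the minus strand. It rose from 88.2 FPKM (71.0 to 105) at 0 h to 139 FPKM (112 to 166) at 24 h, a log2 ratio of 0.66 with a standard error of 0.20. At 8 h it stood at 122 FPKM (99.1 to 146) against 87.9 (71.0 to 105), with overlapping intervals, and at 1 h at 95.7 against 86.8 FPKM. The core proteins Uqcrc1 and Uqcrc2 lay on the other side of 0. Uqcrc1 stood at 99.6 FPKM at 0 h and 71.0 at 8 h (log2 ratio -0.49, and -0.52 at 24 h), and Uqcrc2 at 128 and 94.9 FPKM (-0.43, and -0.39 at 24 h). None of these 4 ratios was called. Of the 5 small subunits, Uqcr10, Uqcr11, Uqcrh and Uqcrq lay between -0.03 and 0.06 at 8 h and between 0.06 and 0.23 at 24 h, and Uqcrb stood at -0.28 and -0.27. The locus of Uqcrb overlaps other expressed loci, and its standard error was 0.36 at 8 h.

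Cyc1, the cytochrome c1 gene whose protein takes the electron from the Rieske protein, lies outside the name rule. It stood at 87.1 FPKM at 0 h and 58.2 at 8 h (log2 ratio -0.58, not called), and fell from 87.5 to 55.7 FPKM at 24 h (-0.65). The catalytic partners within complex III thus had ratios of opposite sign at 24 h, and both were called.

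**Figure D3:**
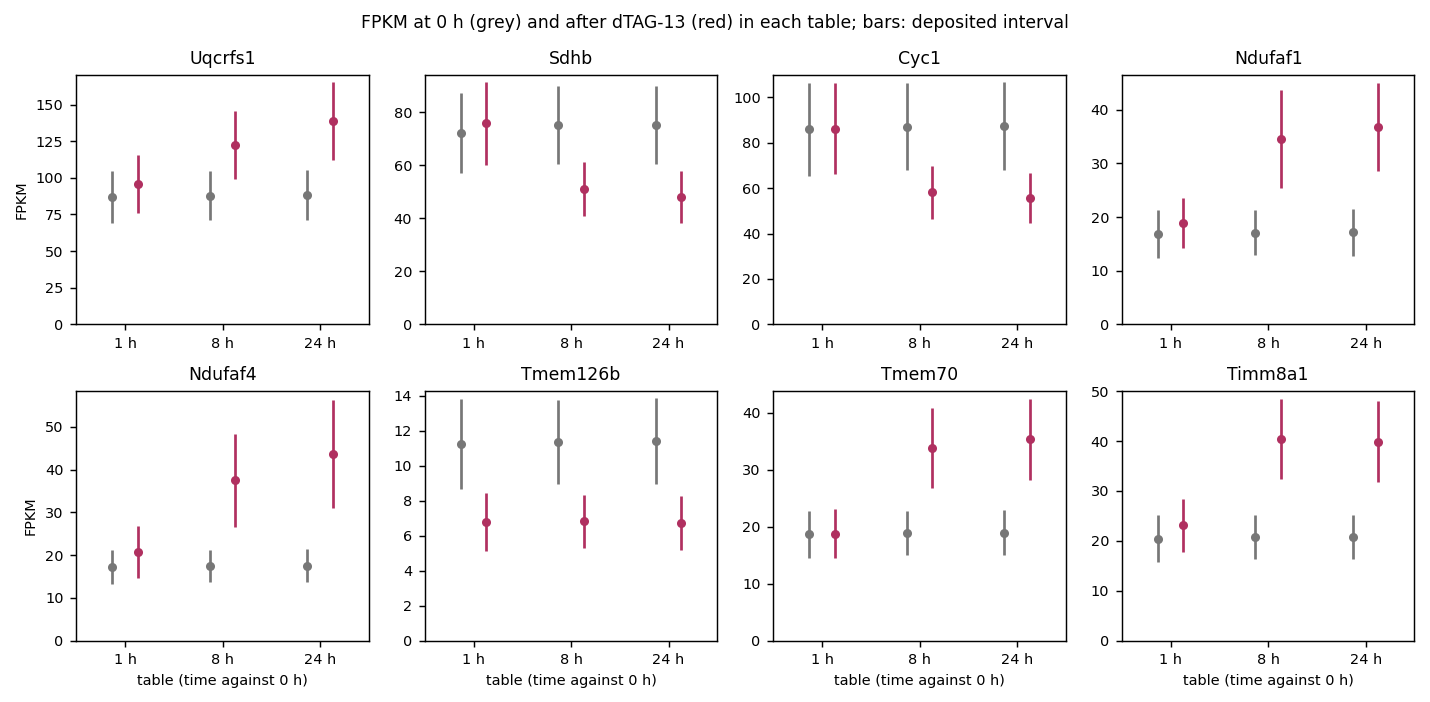
FPKM at 0 h (grey) and after dTAG-13 (red) in each of the 3 tables, with deposited intervals, for the called subunit genes Uqcrfs1 and Sdhb, for Cyc1, and for 5 called assembly or import genes. Uqcrfs1 reaches 139 FPKM and Sdhb 47.9 FPKM at 24 h, and the assembly genes Ndufaf1, Ndufaf4 and Tmem70 separate from 0 h already at 8 h.

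Complex IV genes had medians of 0.13, -0.11 and 0.03 at 1, 8 and 24 h, over 13, 14 and 14 genes, and none was called. These include the associated proteins Cox7a2l and Ndufa4l2. Without them the medians were 0.14, -0.12 and -0.02, over 11, 12 and 12 genes. Cox5b, which binds zinc, had a log2 ratio of -0.41 at 24 h, at 108 FPKM at 0 h and 80.9 at 24 h. Cox5a stood at -0.23. Cox7c, Cox6c and Cox8a, which encode small membrane subunits, stood at 0.13, 0.12 and 0.15 at 24 h, and the locus of Cox6c overlaps another expressed locus. The highest ratio was that of the muscle isoform Cox7a1, at 5.22 FPKM at 0 h (1.75 to 8.69) and 10.1 at 24 h (5.29 to 15.0), a log2 ratio of 0.94 with a standard error of 0.59. Those intervals overlap, and the value rests on 20.5 and 38.7 estimated counts. Ndufa4, once counted to complex I and now known as a complex IV subunit, stood at -0.14 and -0.16 at 8 and 24 h.

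Among ATP synthase genes, 1 of 5 head genes, none of 3 stalk genes, none of 3 ring genes and 2 of 3 small membrane subunit genes lay above 0 at 8 h, with the same counts at 24 h. The head gene above 0 was Atp5e, at 0.04 and 0.17, which is named here after its values were seen. At 1 h all 14 of these genes were above 0. The catalytic head genes Atp5a1 and Atp5b, the most abundant by counts in the set, had log2 ratios of -0.31 and -0.24 at 8 h and -0.35 and -0.27 at 24 h. Atp5b stood at 612 FPKM (493 to 730) at 0 h, against 517 FPKM (414 to 620) at 8 h. Atp5a1 stood at 371 FPKM (301 to 441), against 299 FPKM (243 to 355). Both pairs of intervals overlap. The 3 peripheral stalk genes had medians of -0.20 and -0.24, led by Atp5f1 at -0.38 and -0.40, whose locus overlaps another expressed locus. The c ring genes Atp5g1, Atp5g2 and Atp5g3 stood at -0.45, -0.07 and -0.35 at 24 h. Atp5l and Atp5k, small membrane subunits, stood at 0.20 and 0.19, and Atp5j2, of the same part, at -0.24.

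**Figure D4:**
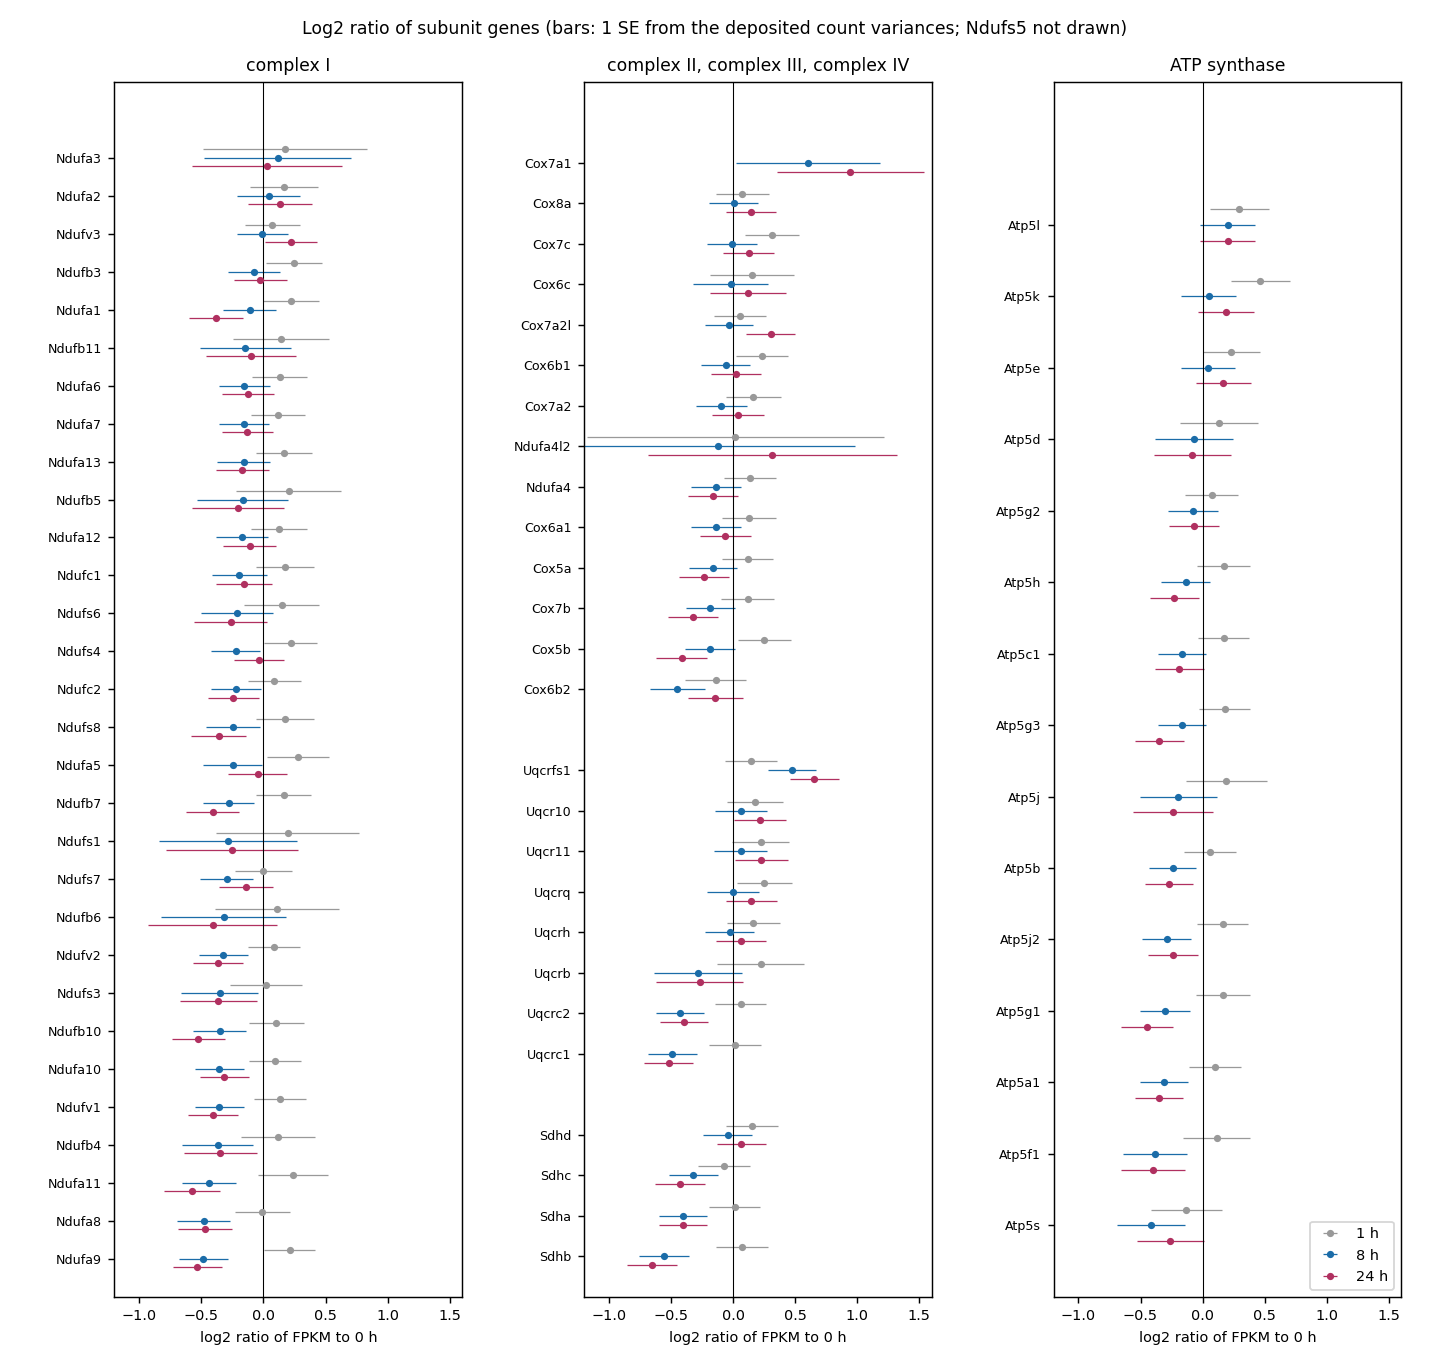
Log2 ratio of FPKM to 0 h (horizontal axis) of the subunit genes at 1 h (grey), 8 h (blue) and 24 h (red), by complex and ordered by the 8 h value. Bars are 1 standard error from the deposited count variances, which can understate the error of the FPKM ratio. Ndufs5 is left out (-1.55 at 8 h and -2.04 at 24 h), the bar of Ndufa4l2 at 8 h runs past the axis, and Uqcrfs1 and Sdhb are the outermost well covered genes at 24 h.

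The called pair also differ in how their coding sequence is split into exons. As background, m6A is deposited mostly in long internal exons and last exons, within a motif that often reads GGACT, and is kept low near exon junctions by the complexes left there after splicing. Genes of the set are short, with a median coding length of 408 bases against 1388 for all tested genes with an annotation, 4 exons against 9, and a longest coding exon of 162 against 275 bases. Uqcrfs1 has 2 exons, 1.22 junctions per kilobase of coding sequence and a longest coding exon of 608 bases. Sdhb has 8 exons, 8.27 junctions per kilobase and a longest coding exon of 137 bases. Only Ndufv3 has a longer coding exon than Uqcrfs1 in the tested set, at 1092 bases, and the next longest is 225 bases (Atp5a1). Ndufv3, an accessory subunit of complex I, had log2 ratios of -0.01 at 8 h and 0.22 at 24 h by FPKM, but -0.20 at 24 h by estimated counts. The called pair does not stand for the set. Across the 73 genes, Spearman's rho of the log2 ratio with the longest coding exon was -0.45 at 8 h and -0.38 at 24 h. Over all 10964 annotated tested genes it was 0.45 and 0.36.

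None of the 73 genes has a GGACT in its coding sequence more than 100 bases from an exon junction, in the representative transcript used. Untranslated sequence was not searched. The set's longest coding exons have a median of 162 bases, which leaves little room for such a site, and other genes were not matched for length. Uqcrfs1 and Ndufv3, with coding exons of 608 and 1092 bases, have no GGACT anywhere in the coding sequence. Of the other annotated tested genes at 8 h, 3438 (31.6%) have at least 1 GGACT more than 100 bases from a junction. Their median log2 ratio was 0.21 at 8 h and 0.20 at 24 h, and that of the other genes without one was -0.05 at both times. The set's medians of -0.18 and -0.21 stood below those of the genes without such a motif as well. Whether the messages carried m6A was not measured here, and the part of these features in the ratios was not tested.

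Within the set, the ratio ran with coding length more than with junction density. Across the 73 genes at 8 h, Spearman's rho of the log2 ratio was -0.59 with coding length and -0.13 with junctions per kilobase. Over all 10964 annotated tested genes it was 0.09 and -0.47, the reverse order of size. These are descriptions across genes that share the same pooled libraries, so no p-value is given. Genes of up to 250 coding bases had a median of -0.00 (14 genes), those of 250 to 500 bases -0.16 (33 genes), those of 500 to 1000 bases -0.32 (15 genes) and longer ones -0.36 (11 genes). Other genes in the same length classes had medians of 0.02, -0.05, -0.03 and 0.04. At 24 h the medians of the set were 0.14, -0.14, -0.36 and -0.35, and those of other genes 0.10, -0.01, -0.02 and 0.03. At 1 h the set had 0.17, 0.16, 0.10 and 0.07, and other genes 0.11, 0.08, 0.04 and -0.02. The fall with length at 1 h was thus shared by other genes.

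**Figure D5:**
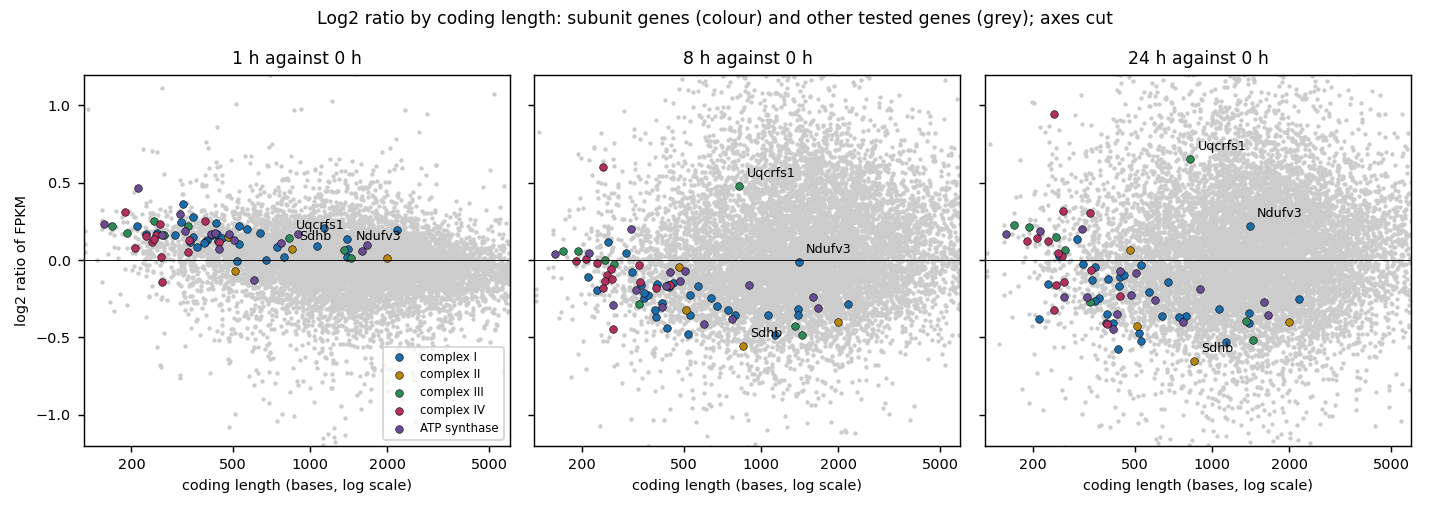
Log2 ratio of FPKM to 0 h (vertical axis, with the tails not drawn) against coding length in bases (log axis) at 1, 8 and 24 h, for subunit genes (coloured by complex) and other tested genes (grey). At 8 h the subunit genes run from near 0 at the shortest lengths to medians of -0.32 and -0.36 above 500 bases, and Uqcrfs1, at 0.48, lies apart from the others of its length.

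Promoters of respiratory chain genes are known for sites of the nuclear respiratory factor NRF1 and of ETS factors such as GABP (NRF2), so these motifs were searched as letters in the 250 bases before each RefSeq gene start (GRCm38.p6). Of the 77 gene names 63 matched the RefSeq table, with 68 windows. The NRF1 motif, GCGCA followed by any base and GCGC, stood on either strand in 20.6% of the windows, against 8.27% of windows of all tested genes and 3.74% of all windows in the table. CCGGAAG, the ETS motif, stood in 17.6%, against 13.6% and 6.91%. At least 1 of the motifs was present in 33.8% of the windows, against 20.6% and 10.1%. The upstream sequences of the called genes hold neither, and they are shown beside sequences with NRF1 (Cox6a1) and ETS (Atp5l) matches, which the capitals mark. Where the 250 bases reach into the annotated gene, only the part before it is printed, and an ETS match of Cox6a1 lies in the part not printed. The ETS match in Atp5l is on the opposite strand and reads CTTCCGG. Each sequence runs 5′ to 3′ on the strand of its gene and ends where the annotated gene begins: Sdhb at chr4:140961021-140961202 (plus), Uqcrfs1 at chr13:30545363-30545566 (minus), Cox6a1 at chr5:115348982-115349208 (minus) and Atp5l at chr9:44920743-44920992 (minus).
Sdhb: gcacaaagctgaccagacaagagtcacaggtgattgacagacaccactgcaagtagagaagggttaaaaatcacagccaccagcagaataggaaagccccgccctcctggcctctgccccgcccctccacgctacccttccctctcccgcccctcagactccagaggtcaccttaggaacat
Uqcrfs1: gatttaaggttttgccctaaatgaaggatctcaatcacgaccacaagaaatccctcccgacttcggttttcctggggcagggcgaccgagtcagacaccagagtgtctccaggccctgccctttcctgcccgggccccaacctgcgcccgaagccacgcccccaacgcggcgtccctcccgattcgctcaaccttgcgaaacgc
Cox6a1: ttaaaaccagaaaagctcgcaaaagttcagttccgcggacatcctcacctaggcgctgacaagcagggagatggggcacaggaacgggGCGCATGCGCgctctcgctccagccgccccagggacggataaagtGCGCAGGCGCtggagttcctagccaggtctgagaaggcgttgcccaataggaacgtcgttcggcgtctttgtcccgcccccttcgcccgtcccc
Atp5l: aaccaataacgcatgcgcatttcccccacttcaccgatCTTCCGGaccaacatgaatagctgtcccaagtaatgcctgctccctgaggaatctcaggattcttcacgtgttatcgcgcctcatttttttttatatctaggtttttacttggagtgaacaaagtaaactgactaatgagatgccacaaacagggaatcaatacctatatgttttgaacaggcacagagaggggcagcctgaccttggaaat
A match is a run of letters and not a measured binding site, and no match says only that these letters are not in the window. Cox6a1, with 2 NRF1 matches shown and an ETS match in its window, stood at 0.13 in log2 ratio at 1 h, -0.14 at 8 h and -0.06 at 24 h. The complex IV medians, with associated proteins included, were 0.13, -0.11 and 0.03. Atp5l stood at 0.29, 0.20 and 0.20.

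Among the genes whose proteins assemble complex I, 3 of 17 tested were called at 8 h, 2 higher and 1 lower, where 4.43% of all tested loci were called. Ndufaf1 rose from 17.1 FPKM (12.9 to 21.2) at 0 h to 34.6 FPKM (25.4 to 43.7) at 8 h, with log2 ratios of 1.01 at 8 h and 1.096 at 24 h. Ndufaf4 rose from 17.4 to 37.5 FPKM at 8 h, with ratios of 1.098 and 1.31. Tmem126b, which works in assembly of the complex I membrane arm, fell at all 3 times, from 11.2 to 6.76 FPKM at 1 h, with ratios of -0.72, -0.73 and -0.75. It was the single gene of the assembly lists called at 1 h. The median of the 17 was 0.02, -0.05 and 0.01, beside medians of 0.14, -0.25 and -0.26 for the complex I subunits.

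Tmem70, an assembly factor of ATP synthase, rose from 18.9 to 33.8 FPKM at 8 h, with log2 ratios of 0.84 at 8 h and 0.90 at 24 h. It was 1 of 5 tested, where 3.49% of all tested loci were called higher at 8 h. No assembly factor of complexes II, III or IV was called, of 4, 6 and 18 tested at 8 h, where 4.43% of all tested loci were called. Coa7, of complex IV, had a log2 ratio of 0.96 at 8 h, at 19.1 FPKM at 0 h (11.6 to 26.5) and 37.1 at 8 h (25.5 to 48.7), with intervals that overlap by little.

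Chain genes outside the name rule lay mostly below 0 as well at 8 and 24 h. Their list mixes electron carriers and entry points with other subunits and associated proteins. Of 12 tested chain genes outside the name rule, 0 were called at 8 h, where 4.43% of all tested loci were called. Their median at 8 h was -0.24, with 1 above 0. At 24 h 2 were called lower, where 1.65% of all tested loci were. These were Cyc1 and Etfa, a subunit of the flavoprotein that brings electrons from fatty acid oxidation, which fell from 55.2 to 35.8 FPKM (-0.63). The 18 tricarboxylic acid cycle genes had medians of 0.04, -0.19 and -0.14 and no call, with Suclg1 at -0.45, Fh1 at -0.43 and Idh3g at -0.40 at 8 h.

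Of the 13 subunits encoded by the mitochondrial genome, 8 had a unique tested locus, and as a group these did not share the lower values at 8 and 24 h. They had medians of 0.19, 0.08 and 0.20 at 1, 8 and 24 h, with none called. Their levels were uneven: mt-Co2 stood at 34.1 FPKM at 0 h, and mt-Nd6 had an interval of 0 to 120 FPKM. mt-Co1 stood at 6012 FPKM at 0 h and 6075 at 8 h, mt-Nd1 at 3086 and 3166, and mt-Cytb at 2934 and 3077. The difference between the nuclear and the mitochondrial subunits was not tested.

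Of 74 mitochondrial ribosomal protein genes 4 rose at both 8 and 24 h and none fell, near the 3.49% and 3.83% of all tested loci called higher. Their median was 0.01 at 8 h and 0.05 at 24 h. These were Mrps2 (1.28 at 8 h), Mrpl46 (1.19), Mrpl43 (1.11) and Mrpl16 (0.86). Timm8a1, an import chaperone of the space between the membranes, rose from 20.7 to 40.4 FPKM at 8 h (0.96), 1 of 20 import genes tested. The import genes had medians of 0.12, -0.01 and 0.13 at 1, 8 and 24 h. Tefm, an elongation factor of mitochondrial transcription, rose at 8 h (0.74), 1 of 24 tested genes of mitochondrial gene expression. It stood at 0.63 at 24 h, where it was not called. No regulator of mitochondrial genes was called, of 11 tested at 8 h, where 4.43% of all tested loci were called. Ppargc1a stood at 1.26 FPKM at 0 h and 0.81 at 8 h, and Pprc1 at 28.2 and 35.9 FPKM.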

How the data were processed

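Polyadenylated RNA of 8 samples in 4 groups, assigned from their titles, was sequenced from both ends, according to the labels. The authors deposited FPKM and its bounds in 3 comparisons with 0 h, scaled within each table, per the file headers. They also deposited an estimated count per locus with its variance, pooled over the 2 samples of a group like the FPKM, per the file headers. Cufflinks 2.2.1, Cuffdiff and mm10 are named in the submitters' processing notes; the level of the interval and the strandedness of counting are not given in the sources used here. The labels mention separate library preparations for the 2 samples, which the tables do not keep apart.

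From these, the log2 ratio of FPKM with 0.1 added was computed within each table, since each was normalized on its own. It understates changes of low genes. Loci needed at least 1 FPKM in 1 condition and status OK; status was not OK for 10, 7 and 9 loci at 1, 8 and 24 h. No count model was fitted, because the columns are pooled; the counts and their deposited variance gave standard errors and shares. All loci summed to between 31306400 and 32519900 estimated counts per condition, which the authors had normalised, so they are no measure of depth, and unnamed loci held 1.03% to 1.04% of those at 0 h. Genes of the set had a median of 1659 estimated counts at 0 h (8 h table). The genes Ndufb9, Atp5o, Ndufb8 and Ndufb2 stand in loci merged with other genes and were left out; 16 genes of the set at 8 h overlap another expressed locus.

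Exon properties came from GENCODE M21, with 1 representative transcript a gene. Genes named in the text are those called at any time, the highest and lowest ratios and levels of each complex, catalytic subunits, isoform sets, and, of other lists, the called genes or the 3 with the largest absolute ratio at 8 h. The genes and lists were chosen with earlier results of these data known. Alternatives changed the pseudocount, the filter, the quantity, the scaling, the members and the call rule. One gene of the set counts in its totals and medians but is not reported here by itself. The scripts were tested on simulated data. Python 3.11.15, pandas 2.3.3, NumPy 2.4.6 and SciPy 1.17.1 were used.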

Additional observations from a re-analysis of the deposited data

How the results depend on the processing

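Under the alternatives tried, no median of the whole set changed sign and no called ratio reversed: the set's median log2 ratio ranged from 0.08 to 0.18 at 1 h, from -0.19 to -0.15 at 8 h and from -0.23 to -0.17 at 24 h. Without associated proteins, the complex IV median at 24 h was -0.02 in place of 0.03. With FPKM rescaled to a common total over named loci, 16 genes stood above 0 at 8 h, in place of 10. With 1.5-fold and no interval criterion, 2 genes were called at 8 h (13.7% of all loci) and 4 at 24 h (17% of all loci). With 2-fold and separated intervals, 0 genes were called at 24 h (2.14% of all loci). By estimated counts, 2 named ratios moved by over 1 standard error, neither of them called: Ndufs5 at 8 h (-0.29) and Ndufv3 at 24 h (-0.20). The other 98 summary values and 773 values of single genes were within the spread or within 1.5 times the count reported. Leaving out the 4 genes whose 0 h level differed between tables was chosen after seeing the data. No paired analysis was possible because each condition has 1 column that pools both samples; leaving out a replicate was not run for the same reason. Low counts limit Ndufs5 and Cox7a1, and for the rest the width of the deposited interval sets what can be called.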
